A study of Mus musculus with 8 samples.

Results

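Nuclear receptors were described across cystic and wild-type mouse kidneys. The set comprised every gene whose symbol in the probe annotation has the nuclear receptor form (Nr followed by a subfamily number, a group letter and a member number), together with the receptors that carry other names, such as *Vdr* and *Hnf4a*. These were 47 receptors, of which 44 had a probe with their name among the 16593 genes on the array, and 24 of the 44 were measured well enough to be tested, out of 9833 genes tested in all. No probe in the annotation carried the names *Nr1h2*, *Nr2e3* or *Nr3c2*. A further symbol of the same form, *Nr2c2ap*, encodes a protein associated with a receptor and was kept apart. Total RNA came from whole kidneys at postnatal day 10 (P10), taken from 4 *Pkd1*V/V mice, which the study describes as a hypomorphic *Pkd1* mutant with a comparatively mild polycystic disease, and from 4 wild-type littermates. Each kidney was hybridised to 1 Illumina MouseRef-8 array. The labels name no treatment and no Cre transgene for either group, and they give neither sex nor litter, so the *P* values measure the spread between these 8 kidneys.

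Nuclear receptors are transcription factors with a DNA-binding domain of zinc fingers and, in most members, a pocket that binds a small lipid-soluble ligand such as a steroid, a retinoid, vitamin D, thyroid hormone, a bile acid or a fatty acid. Many bind DNA as partners of a retinoid X receptor, at repeats of a short half-site, and recruit corepressors without ligand and coactivators with it. Others, the orphan receptors, have no settled natural ligand. In the kidney they are known for control of proximal tubule identity, mineral handling, sodium transport, drug transport and fatty acid use.

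Of the 24 tested receptors, 11 were lower and none was higher in *Pkd1*V/V than in wild-type kidneys (limma, Benjamini-Hochberg adjusted *P* under 0.1 over all genes tested). Over all genes tested, 15.8% were called lower and 16.8% higher, 32.6% in either direction. The median log2 fold change of the receptors was -0.44, against 0.02 over all genes tested. *Nr1i2* passed the filter through the wild-type arrays alone, and among the 23 receptors detected in both groups 10 were lower, 4 of them at least 2-fold, with a median of -0.41. The 11 were *Hnf4a*, *Nr1h4*, *Nr1i2*, *Vdr*, *Esrrb*, *Nr1h3*, *Rarb*, *Esrra*, *Nr1d2*, *Nr3c1* and *Nr2f6*. In 10 of the 24 receptors every *Pkd1*V/V kidney was below every wild-type kidney, and in none was every *Pkd1*V/V kidney above. Among the 23 receptors detected in both groups, every *Pkd1*V/V kidney was below every wild-type kidney in 9. Such a separation was found in 13.8% of all genes downwards and 15.4% upwards. Groups did not overlap, in either direction, in 29.2% of all genes. The count of lower receptors was 11 without wild-type replicate 4 and 10 without *Pkd1*V/V replicate 1, the kidneys that carried transcripts of other organs (described with the arrays). On the probe that stood for its gene, no receptor outside the 11 had an unadjusted limma *P* under 0.05. In whole-kidney RNA, fewer cells of a type and less RNA per cell cannot be told apart.

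To show the sequence at receptor genes that fell, the 250 bases before the start site were taken from RefSeq (GRCm38.p6) for 22 of the 24 tested receptors, and 6 motifs were searched on both strands. The retinoic acid response element, GGTTCA and AGTTCA in direct repeat with any 5 bases between them, was found at *Rarb* alone among the tested receptors, and in 0.00609% of 32851 promoters. These half-site letters are those of the *Rarb* element itself, so a match at *Rarb* was fixed in advance and is no search result. The half-site GTTAAT of the HNF1 factors was found in 3 of the 34 promoters of the tested receptors, some of which have several, and in 6.43% of all promoters. The 3 belong to *Hnf4a*, *Nr1h4* and, among the receptors that were not called, *Nr5a2*. The promoters of *Rarb* (chr14:16575477-16575726, minus strand), *Hnf4a* (chr2:163546905-163547154, plus strand) and *Nr1h4* (chr10:89506659-89506908, minus strand) are shown because their matches bear on the receptors that follow. Capitals mark the retinoic acid element in *Rarb*, the GTTAAT half-sites, which stand on the opposite strand in *Hnf4a*, and in *Nr1h4* an opposite-strand AGGTCA followed by a GTTAAT.
Rarb: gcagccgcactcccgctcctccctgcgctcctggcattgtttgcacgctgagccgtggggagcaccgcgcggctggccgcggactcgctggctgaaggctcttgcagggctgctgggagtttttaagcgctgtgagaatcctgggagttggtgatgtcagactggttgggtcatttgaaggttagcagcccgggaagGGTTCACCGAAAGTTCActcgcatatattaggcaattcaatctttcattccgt
Hnf4a: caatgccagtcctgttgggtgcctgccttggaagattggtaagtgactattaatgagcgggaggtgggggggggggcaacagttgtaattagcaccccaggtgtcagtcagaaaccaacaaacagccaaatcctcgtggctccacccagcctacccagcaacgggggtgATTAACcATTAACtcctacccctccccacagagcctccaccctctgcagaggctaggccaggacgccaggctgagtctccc
Nr1h4: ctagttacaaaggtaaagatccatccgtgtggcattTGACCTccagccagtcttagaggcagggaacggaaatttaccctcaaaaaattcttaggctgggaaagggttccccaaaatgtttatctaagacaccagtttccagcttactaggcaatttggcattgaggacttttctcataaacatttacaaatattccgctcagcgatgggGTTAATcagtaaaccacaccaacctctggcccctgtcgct
The *Rarb* element lay at -53 to -37 from the start site. The *Hnf4a* half-sites lay at -81 to -76 and -74 to -69, and the *Nr1h4* matches at -214 to -209 and -40 to -35. The nuclear receptor half-site AGGTCA itself was in 14.0% of all promoters and was found in 2 of the 13 promoters of lower receptors, those of *Nr1d2* and *Nr1h4*, and in 6 of the 21 promoters of the others. Direct repeats of AGGTCA with any 1 base between the copies (0.0335% of all promoters) or any 4 bases (0.0152%), and the E-box CACGTG (6.02%), were found at none of the tested receptors. These matches are letters in a window and were not tested as binding sites.

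Detection was counted as an Illumina detection *P* under 0.05 on at least 1 probe of the gene. In *Pkd1*V/V kidneys 20 receptors were detected on all 4 arrays, 7 on some and 17 on none, and in wild-type kidneys 22 were detected on all 4, 4 on some and 18 on none. The 19 receptors above background on all 8 arrays included the vitamin D receptor *Vdr*, the glucocorticoid receptor *Nr3c1*, the estrogen receptor *Esr1*, the bile acid receptor *Nr1h4* (FXR), the oxysterol receptor *Nr1h3* (LXRα), *Hnf4a*, *Pparg*, *Rarb*, *Rarg* and *Rxrb*. The 15 above background on no array were *Esr2*, *Esrrg*, *Hnf4g*, *Nr0b1*, *Nr0b2*, *Nr1h5*, *Nr2c2*, *Nr4a1*, *Nr4a3*, *Nr5a1*, *Pgr*, *Ppara*, *Ppard*, *Rorb* and *Thrb*. A probe that is not above background gives only an upper limit for its own target, and *Ppara*, *Ppard*, *Esrrg* and *Hnf4g* were among these, so nothing could be said of their direction. Detection separated the groups for *Nr1i2*, above background in 0 of 4 *Pkd1*V/V and 4 of 4 wild-type kidneys. Detected in part of 1 group only were *Rara*, above background in 2 of 4 *Pkd1*V/V kidneys, *Nr4a2* and *Rxrg*, each in 1 *Pkd1*V/V kidney, and *Nr1i3*, in 1 wild-type kidney.

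**Figure D1:**
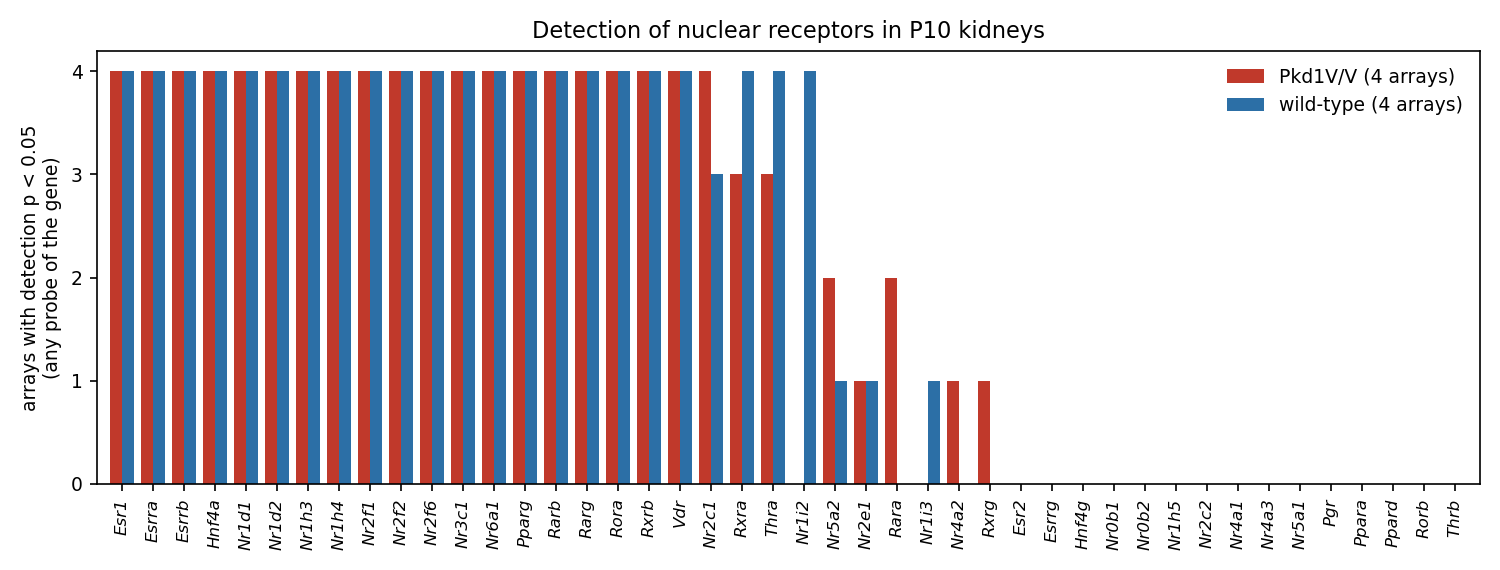
Number of arrays on which each of the 44 receptors with a probe was detected (detection *P* under 0.05 for any probe of the gene), with *Pkd1*V/V bars left of wild-type bars. The first 19 receptors were detected on all 8 arrays, *Nr1i2* in wild-type kidneys only, and the last 15 on none.

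The mutant gene and the arrays were checked first. *Pkd1* itself gave a signal of 64.2, 136, 118 and 87.3 in *Pkd1*V/V kidneys and 85.4, 147, 118 and 118 in wild-type kidneys (log2 fold change -0.20, limma adjusted *P* = 0.545), which neither supports nor contradicts the labels of a hypomorphic allele. Between 51.8% and 54.1% of probes were detected in *Pkd1*V/V kidneys and between 52.0% and 54.3% in wild-type kidneys, and receptor probes were read from 14 to 63 beads on each array. Markers of the proximal tubule, the segment that takes up most of the filtrate, were lower for all 10 tested genes of 12 on the array (median log2 fold change -1.80), with summed signals of 10230 to 18440 in *Pkd1*V/V and 39890 to 47420 in wild-type kidneys. The 2 untested markers, *Slc7a13* and *Lrp2*, were at or near background in both groups. Of the markers tested, 6 of 7 for the thick ascending limb, 3 of 4 for the distal convoluted tubule and 7 of 8 for endothelium were lower, whereas 9 of 9 macrophage and leukocyte, 6 of 7 smooth muscle, 5 of 8 principal cell and 9 of 10 tubular injury markers were higher. The injury markers *Havcr1* and *Sox9* were above background in 4 of 4 *Pkd1*V/V and 0 of 4 wild-type kidneys. They passed the filter through the *Pkd1*V/V arrays alone and carry only bounds, of at least 1.69-fold and 1.9-fold higher. Among the remaining markers, 2 of 3 for podocytes, 2 of 5 for intercalated cells and 2 of 3 for erythroid cells were lower. The same gene, *Slc4a1*, is counted as lower for both intercalated and erythroid cells, and the intercalated median was 0.17. Likewise *Krt8* is counted as higher for both principal cells and tubular injury. Of 9 fibroblast and matrix markers, 4 were higher and 3 lower. Their part in the receptor results was not tested. Wild-type replicate 4 stood apart through liver transcripts, and *Pkd1*V/V replicate 1 through adrenal transcripts. The 8 tested liver markers summed to 2560 to 4165 in *Pkd1*V/V kidneys, to 8844 to 10790 in the other wild-type kidneys and to 60600 in wild-type replicate 4. The single marker *Ttr*, counted again below with thyroid hormone supply, carried much of the sums outside wild-type replicate 4. It read 1616 to 3601 in *Pkd1*V/V kidneys, 7653 to 9892 in the other wild-type kidneys and 13150 in wild-type replicate 4. The adrenal markers *Cyp11b1* and *Cyp21a1* read 333 and 101 in *Pkd1*V/V replicate 1 and 0 in each of the other kidneys. Not all of the 8 adrenal markers on the array did so: *Star*, *Hsd3b1* and *Fdx1* were above background on no array. Only 1 adrenal marker was tested, and it was not called.

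*Hnf4a*, the orphan receptor that maintains proximal tubule and hepatocyte gene programs, was, with *Nr1h4*, among the receptors with the lowest values relative to wild type. Its signal was 697, 777, 815 and 1033 in *Pkd1*V/V kidneys, against 1878, 1879, 1651 and 1874 in wild-type kidneys. All *Pkd1*V/V kidneys lay well below the wild-type range, and the log2 fold change was -1.13 (SE 0.137, adjusted *P* = 0.000465, limma), with -1.12 when wild-type replicate 4 was left out. The second family member, *Hnf4g*, was not above background. Among genes of the HNF4 and HNF1 network, 8 of 10 tested were lower and 1 was higher (median log2 fold change -1.79). They included the gluconeogenic enzymes *Pck1* (-2.49, adjusted *P* = 0.000772), *G6pc* (-2.23, adjusted *P* = 0.000192) and *Fbp1* (-1.79, adjusted *P* = 0.000428), and the gene that was higher was the epithelial cadherin *Cdh1* (0.46, adjusted *P* = 0.0185). *Pck1*, *Slc22a6* and *Slc34a1* stand in both this list and the proximal tubule list.

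**Figure D2:**
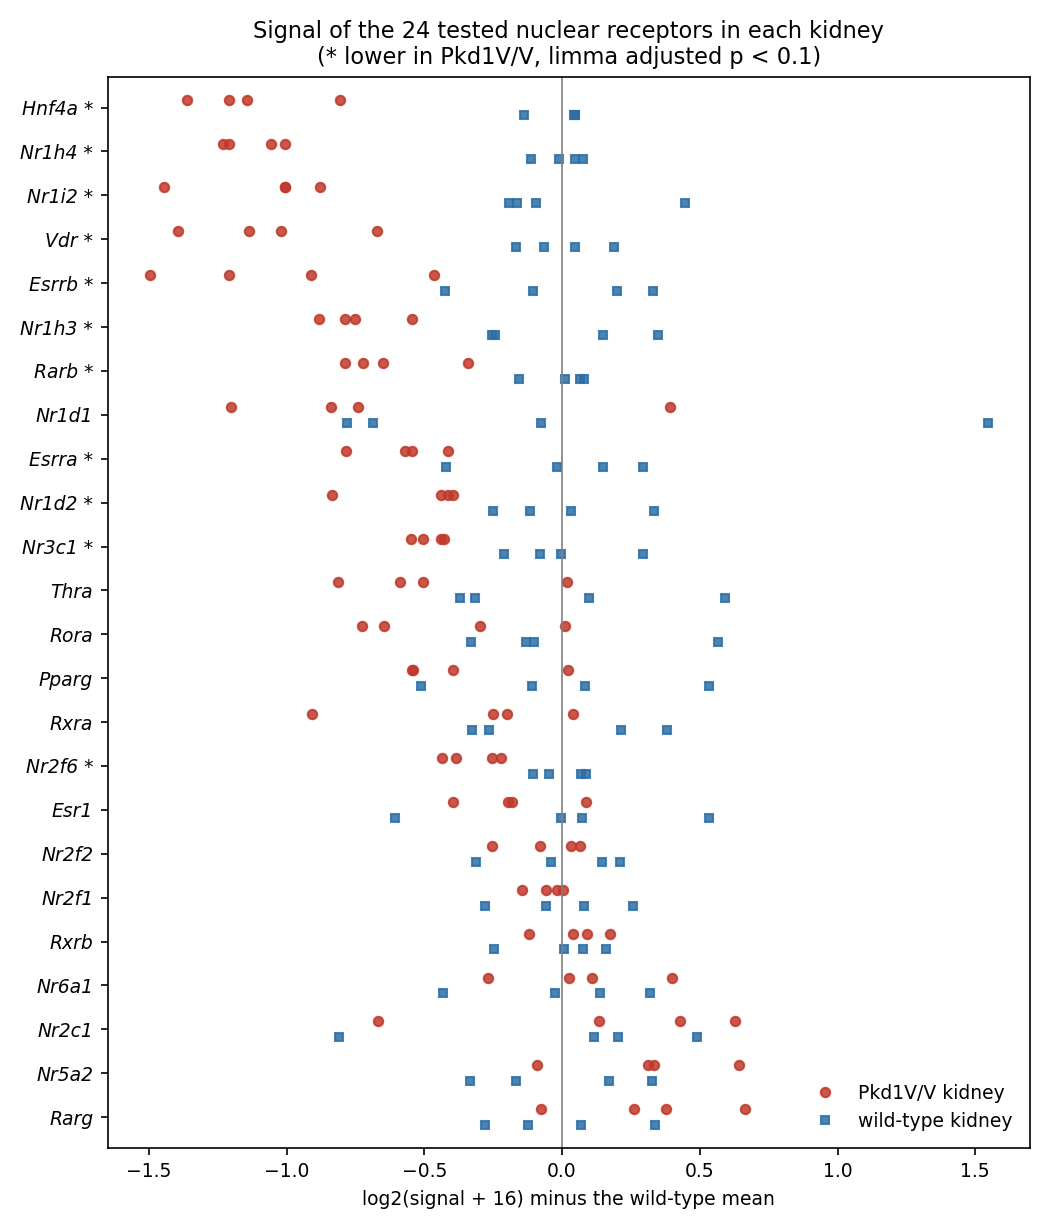
Signal of the 24 tested receptors in each kidney, as log2(signal + 16) minus the wild-type mean of that receptor, with *Pkd1*V/V circles above wild-type squares and asterisks at the 11 receptors called lower. Of these 11, *Esrra* is the one whose groups overlap, and *Nr1d1* in wild-type replicate 4 is the point farthest to the right.

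Among the fatty acid, bile acid and oxysterol sensors, *Nr1h4* and *Nr1h3* were lower and *Pparg* was not called. *Nr1h4* encodes FXR, which senses bile acids, and its signal was 308, 265, 261 and 297 in *Pkd1*V/V kidneys and 655, 670, 585 and 630 in wild-type kidneys. Both groups were tight and did not overlap (log2 fold change -1.13, SE 0.108, adjusted *P* = 0.000182). *Nr1h3* encodes LXRα, a sensor of oxidised cholesterol, and read 105, 89.0, 79.7 and 86.4 in *Pkd1*V/V kidneys and 132, 180, 133 and 209 in wild-type kidneys. The groups did not overlap (log2 fold change -0.74, SE 0.161, adjusted *P* = 0.00877), and the value without wild-type replicate 4 was -0.62 (adjusted *P* = 0.0184). A dimmer second probe of *Nr1h3* gave 0.05 and was not called, so its probes disagree. *Pparg*, the adipogenic PPAR, read 56.1, 63.8, 56.0 and 90.5 in *Pkd1*V/V kidneys and 81.3, 57.6, 136 and 95.2 in wild-type kidneys, with overlapping groups (log2 fold change -0.36, 95% interval -0.86 to 0.13). The fat cell hormone *Adipoq* ranged from 97.8 to 382 in *Pkd1*V/V kidneys and from 86.4 to 560 in wild-type kidneys, and the part of attached fat in the *Pparg* values was not tested.

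Target genes of these sensors were counted next. Of 4 tested FXR targets, 3 were lower: the 2 subunits of the basolateral bile acid transporter, *Slc51b* (-1.69, adjusted *P* = 0.000386) and *Slc51a* (-1.19, adjusted *P* = 0.0198), and the bile acid conjugating enzyme *Baat* (adjusted *P* = 0.0174). *Baat* was above background in 1 of 4 *Pkd1*V/V kidneys and 4 of 4 wild-type kidneys, and its log2 fold change ran from -3.36 to -0.91 over the processing alternatives. *Slc51b* read 155, 136, 191 and 149 in *Pkd1*V/V kidneys and 783, 491, 556 and 403 in wild-type kidneys, without overlap. Of 6 tested LXR targets, 3 were lower, of which the sterol transporter *Abcg5* had the lowest adjusted *P* (-1.74, adjusted *P* = 0.0068). *Abcg5* was -1.32 without wild-type replicate 4 and was not called by SAM. The other two were *Lpcat3* (-0.30), which lost its call without *Pkd1*V/V replicate 1, 3 or 4 and without wild-type replicate 1, 3 or 4 (-0.31 to -0.28), and *Apoe* (-0.95), which lost it without any one of the *Pkd1*V/V kidneys and without wild-type replicate 3 (-1.04 to -0.83) and was -0.55 without wild-type replicate 4. The call of *Apoe* was also lost with no offset, with no filter, with a t-test, adjusted or not, and with SAM. That of *Lpcat3* was also lost with the replicate number as a block. *Ppara* and *Ppard* were at background, yet 10 of 15 tested genes known as PPARα targets were lower and none was higher (median -0.62), among them *Acaa1b* (-1.63), *Cyp4a14* (-1.99) and *Ehhadh* (-1.93) of peroxisomal and microsomal fatty acid oxidation. Of 5 tested adipocyte and PPARγ targets, the lipase *Lpl* was lower (-0.70) and the hormone *Lep* was called higher. *Lep* was above background in 3 of 4 *Pkd1*V/V kidneys and 0 of 4 wild-type kidneys, so it passed the filter through the *Pkd1*V/V arrays alone and carries only a bound of at least 1.4-fold higher (adjusted *P* = 0.0267).

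*Nr1i2* encodes PXR, which senses drugs and bile acids and induces enzymes and transporters that clear them. Its signal was 16, 7.58, 16 and 18.9 in *Pkd1*V/V kidneys, none of them above background, against 40.2, 44.2, 41.4 and 71.6 in wild-type kidneys. The highest value was in wild-type replicate 4, the kidney with liver transcripts, and the other 3 wild-type kidneys were also above every *Pkd1*V/V kidney. Because the *Pkd1*V/V values carry only an upper limit, set for each array at the higher of the probe's own signal and the lowest signal detected on it, *Nr1i2* was at least 1.72-fold lower (limma adjusted *P* = 0.0023, and 0.00344 without wild-type replicate 4). It passed the filter on dim probes only through the group in which it is higher, so its call is not counted as support for the other receptors. The related sensor *Nr1i3* (CAR) was above background only in wild-type replicate 4, at 58.2, and was not tested. Of 3 tested targets of these receptors, the glutathione transferase *Gsta2* (-2.31, adjusted *P* = 0.00147) and the export pump *Abcc2* (-1.16, adjusted *P* = 0.00263) were lower. The others of the 10 targets on the array could not be tested. The brightest probes of *Cyp3a11*, *Cyp2b9* and *Cyp3a25* were above background only in wild-type replicate 4, at 199, 180 and 85.6. Those of *Cyp2b10*, *Cyp2c29*, *Abcb1a* and *Ces2a* were above background on no array.

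*Vdr*, the receptor of active vitamin D, read 351, 267, 322 and 451 in *Pkd1*V/V kidneys and 831, 694, 753 and 646 in wild-type kidneys. The groups were far apart (log2 fold change -1.06, SE 0.163, adjusted *P* = 0.00158), and the call held on all 3 of its probes, at -0.92 to -1.06. Genes of vitamin D action moved in both directions, with 3 lower and 1 higher of 6 tested. The calcium-binding protein *S100g* (-1.97, adjusted *P* = 0.000456) and the FGF23 co-receptor *Kl* (-1.63, adjusted *P* = 0.00168) were lower, and so was the activating enzyme *Cyp27b1* (-1.49, adjusted *P* = 0.0481). *Cyp27b1* was not called once replicate 4 (-1.21) of the *Pkd1*V/V kidneys or replicate 3 of the wild-type kidneys (-1.46) was removed. It was -1.04 without wild-type replicate 4 (limma adjusted *P* = 0.0726). Its call was also lost with no filter, with a Benjamini-Hochberg adjusted t-test and with SAM. The calcium channel *Trpv6* was higher, at 125, 83.5, 91.5 and 117 in *Pkd1*V/V kidneys and 27.8, 26.4, 22.0 and 25.4 in wild-type kidneys (1.52, adjusted *P* = 0.000133). The degrading enzyme *Cyp24a1*, a classical target, ranged from 120 to 1029 in *Pkd1*V/V kidneys and from 148 to 2856 in wild-type kidneys, a spread within each group wider than the difference (-0.87, adjusted *P* = 0.532).

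The thyroid hormone receptor *Thra* was not called, with 27.0, 49.4, 29.5 and 20.8 in *Pkd1*V/V kidneys and 53.1, 35.9, 34.0 and 81.3 in wild-type kidneys (log2 fold change -0.47, 95% interval -1.02 to 0.07). *Pkd1*V/V replicate 2 was its highest mutant value, and without that kidney the difference was -0.64 and passed the threshold (adjusted *P* = 0.0886). *Thrb* was not above background. Of 5 tested genes of thyroid hormone supply and response, the deiodinase *Dio1* (-2.17, adjusted *P* = 0.00787) and the carrier *Ttr* (-1.84, adjusted *P* = 0.00109) were lower. The corepressor *Hr* was higher (0.82, adjusted *P* = 0.0569), a call that did not hold after removal of replicate 2 or 4 of the *Pkd1*V/V kidneys or of replicate 3 or 4 of the wild-type kidneys (0.63 to 0.81). It was also lost with no filter and with a Benjamini-Hochberg adjusted t-test.

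Of 4 tested retinoid receptors, 1 was lower and 3 were not called. *Rarb*, the retinoic acid receptor whose own promoter carries the retinoic acid element shown above, read 245, 257, 340 and 271 in *Pkd1*V/V kidneys and 389, 438, 460 and 456 in wild-type kidneys. The groups did not overlap (log2 fold change -0.63, SE 0.128, adjusted *P* = 0.00649), and a second probe detected on all arrays gave -0.94 and was also lower. The remaining probe was above background in 0 of 4 *Pkd1*V/V kidneys and 4 of 4 wild-type kidneys, which gives only a bound of at least 1.3-fold lower. *Rarg* read 58.8, 109, 78.5 and 86.3 in *Pkd1*V/V kidneys and 56.3, 83.5, 48.9 and 66.6 in wild-type kidneys, with overlapping groups (0.31, 95% interval -0.11 to 0.72). *Rara* was dim, with 18.2, 24, 24 and 7.31 in *Pkd1*V/V kidneys and 3.96, 7.58, 4.22 and 0 in wild-type kidneys, and was not tested, since it was detected on 2 arrays. Of the shared partners, *Rxra* was not called (-0.33, 95% interval -0.85 to 0.19) and *Rxrb* had a narrow interval around no change (0.05, 95% interval -0.23 to 0.33). *Rxrg* was detected on 1 array. Of 9 tested genes that supply, bind or break down retinoic acid, the synthesising enzyme *Aldh1a1* was higher (1.74, adjusted *P* = 0.0011). The retinol uptake receptor *Stra6* (-0.82, adjusted *P* = 0.00456), the binding protein *Crabp1* (-0.77, adjusted *P* = 0.0107) and the synthesising enzyme *Aldh1a2* (-0.55, adjusted *P* = 0.0591) were lower, the last call being lost after removal of replicate 1, 2 or 4 of the *Pkd1*V/V kidneys or of replicate 2 or 3 of the wild-type kidneys (-0.55 to -0.45). The call of *Aldh1a2* was also lost with no filter and with a Benjamini-Hochberg adjusted t-test.

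**Figure D3:**
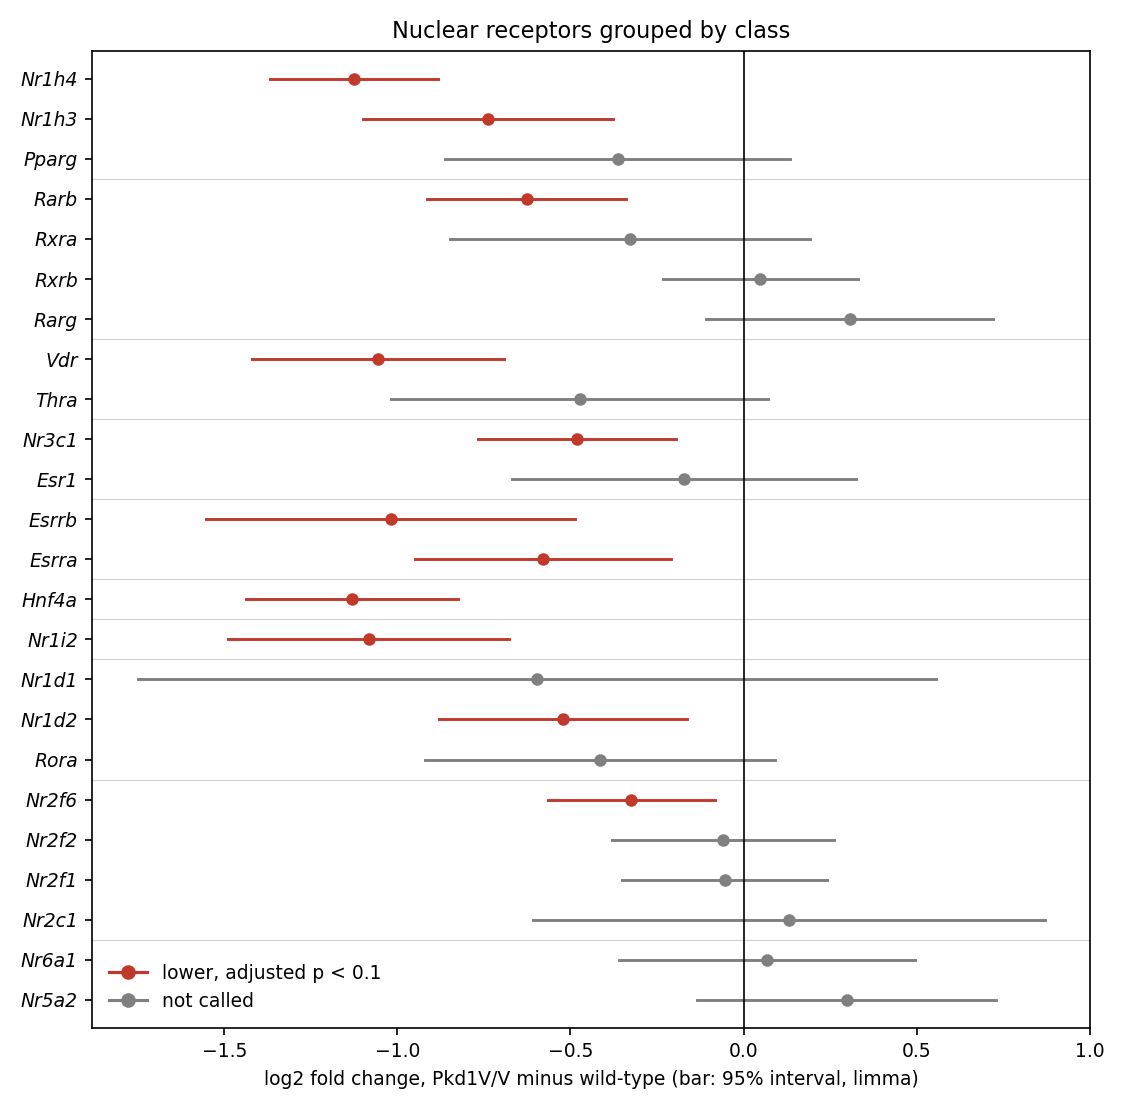
Log2 fold change of the 24 tested receptors, *Pkd1*V/V minus wild-type, with the 95% interval of the limma fit, grouped by class with grey lines between classes. The 11 receptors called lower lie between -1.13 and -0.32, and the widest interval, -1.75 to 0.56, belongs to *Nr1d1*. The fitted value of *Nr1i2* is drawn, although that receptor was not above background in *Pkd1*V/V kidneys.

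Of the steroid receptors, *Nr3c1*, which binds glucocorticoids, read 52.0, 57.4, 57.9 and 54.1 in *Pkd1*V/V kidneys and 106, 70.1, 83.3 and 78.1 in wild-type kidneys. All *Pkd1*V/V kidneys were below all wild-type kidneys (log2 fold change -0.48, SE 0.128, adjusted *P* = 0.0218). *Esr1* read 180, 220, 153 and 178 in *Pkd1*V/V kidneys and 206, 306, 130 and 218 in wild-type kidneys, and its groups overlapped (-0.17, 95% interval -0.67 to 0.32). *Esr2* and *Pgr* were not above background. Of 9 tested genes of corticosteroid metabolism and response, 3 were higher and 2 lower. The sodium channel subunit *Scnn1a* (1.67, adjusted *P* = 0.000978), the chaperone partner *Fkbp5* (1.72, adjusted *P* = 0.00255) and the cortisol-inactivating enzyme *Hsd11b2* (0.80, adjusted *P* = 0.0308) were higher, and the kinase *Sgk1* (-0.91, adjusted *P* = 0.0141) and the phosphatase *Dusp1* (-0.41, adjusted *P* = 0.044) were lower, with *Dusp1* losing its call when replicate 4 (-0.36) of the *Pkd1*V/V kidneys or replicate 3 of the wild-type kidneys (-0.38) was removed. The groups of *Hsd11b2* overlapped, and its call was lost with no filter. All 3 tested estrogen targets were called, *Ctsd* higher (0.78) and *Igf1* (-0.65) and *Greb1* (-0.72) lower.

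The estrogen-related receptors bind no estrogen and control mitochondrial and energy genes together with PGC-1 coactivators. *Esrrb* read 262, 120, 188 and 150 in *Pkd1*V/V kidneys and 341, 466, 270 and 425 in wild-type kidneys. *Pkd1*V/V replicate 1 came within a small distance of wild-type replicate 3 without overlap (log2 fold change -1.02, SE 0.238, adjusted *P* = 0.0123). *Esrra* read 458, 596, 533 and 544 in *Pkd1*V/V kidneys and 984, 888, 789 and 593 in wild-type kidneys. It was the 1 called receptor whose groups overlapped, through wild-type replicate 4 (log2 fold change -0.58, SE 0.165, adjusted *P* = 0.0296, exact two-sided permutation *P* = 0.0571, where 0.0286 is the smallest that 4 against 4 kidneys can give), and without that kidney it was -0.72 (adjusted *P* = 0.00704). *Esrrg* was not above background. The coactivators *Ppargc1a* and *Ppargc1b*, which encode PGC-1α and PGC-1β, were both lower. *Ppargc1a* read 274, 351, 318 and 343 in *Pkd1*V/V kidneys and 751, 613, 571 and 501 in wild-type kidneys (-0.88, adjusted *P* = 0.00225), and *Ppargc1b* gave -0.55 (adjusted *P* = 0.0418), a call lost when replicate 3 (-0.45) or 4 (-0.50) of the *Pkd1*V/V kidneys or replicate 2 of the wild-type kidneys (-0.47) was removed. Of 11 tested targets of these receptors, *Acadm* (-0.81), *Sdhb* (-0.63) and *Atp5b* (-0.33) were lower and none was higher, although *Atp5b* lost its call after removal of replicate 1, 2 or 3 of the *Pkd1*V/V kidneys or of replicate 1 or 2 of the wild-type kidneys (-0.35 to -0.28). The call of *Atp5b* was also lost with median scaling and with the replicate number as a block. *Acadm* is counted among the lower PPARα targets as well.

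Coactivators were called in both directions, at shares near those of all genes tested (15.8% lower and 16.8% higher). Of 13 tested coactivators, 2 were lower, the PGC-1 genes above, and 2 were higher, the arginine methyltransferases *Prmt1* (0.79, adjusted *P* = 0.00194) and *Carm1* (0.53, adjusted *P* = 0.0156). *Prmt1* read 3569, 3886, 3314 and 2900 in *Pkd1*V/V kidneys and 1724, 2147, 2009 and 1955 in wild-type kidneys, with a clear gap between the groups. None of the 5 tested corepressors was called (median 0.13), and *Nr2c2ap* was higher, at 232, 202, 171 and 152 in *Pkd1*V/V kidneys and 84.7, 143, 104 and 125 in wild-type kidneys (0.66, adjusted *P* = 0.0225).

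**Figure D4:**
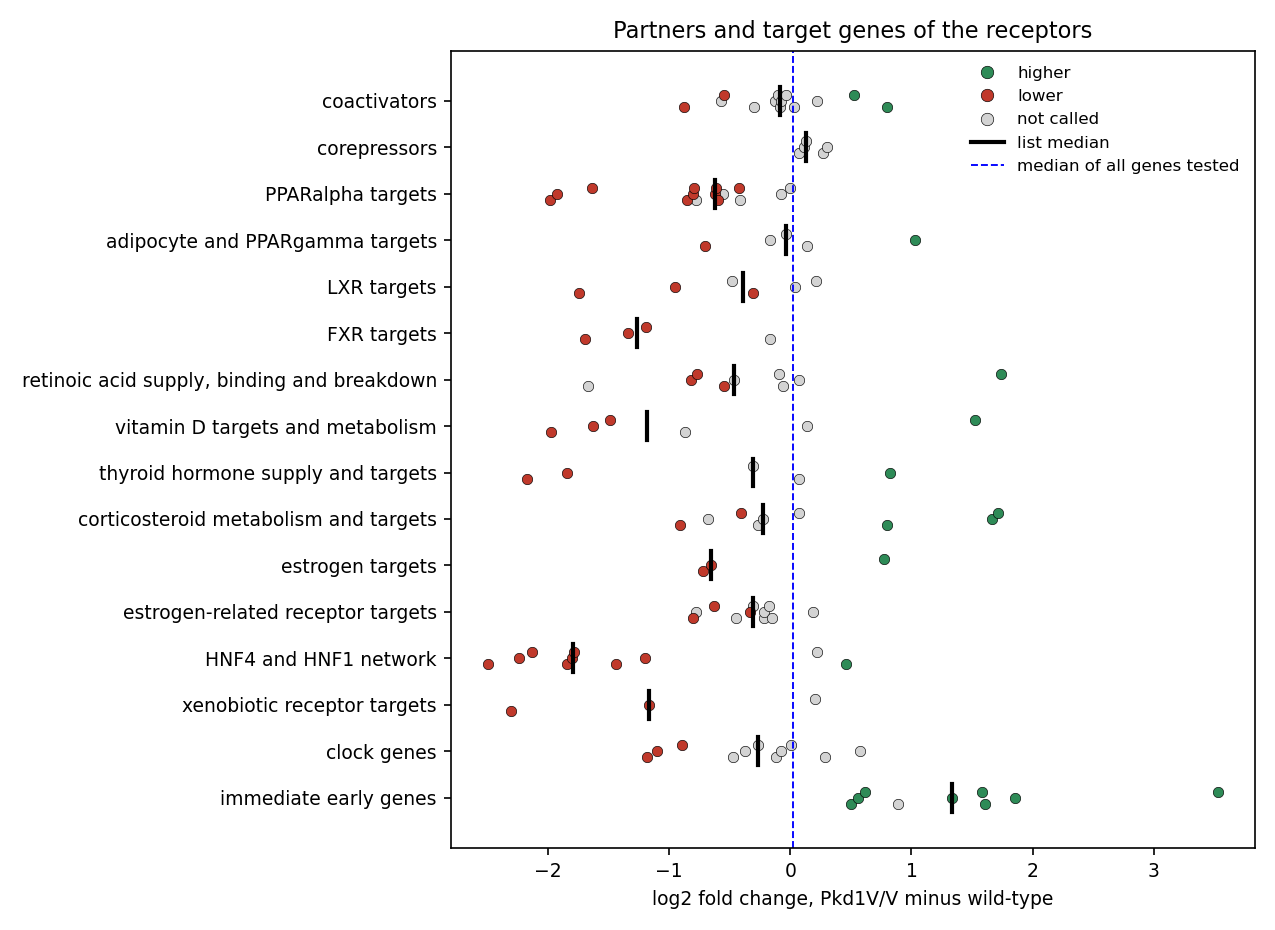
Log2 fold change, *Pkd1*V/V minus wild-type, of each tested gene in the lists of receptor partners and targets (green higher, red lower, grey not called), with the list median as a black bar and the median of all genes tested as a dashed line. Median values run from -1.79 for the HNF4 and HNF1 network to 1.34 for the immediate early genes.

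Of 3 tested clock-linked receptors, 1 was lower. *Nr1d1* and *Nr1d2* encode the REV-ERB repressors of the circadian clock and *Rora* encodes an activator at the same sites. *Nr1d2* read 384, 279, 379 and 372 in *Pkd1*V/V kidneys and 427, 522, 470 and 648 in wild-type kidneys. The groups did not overlap (log2 fold change -0.52, SE 0.160, adjusted *P* = 0.0393), and without wild-type replicate 4 the value was -0.41 (adjusted *P* = 0.0873). A second probe gave -0.30 and was not called. *Nr1d1* read 104, 23.8, 38.7 and 35.2 in *Pkd1*V/V kidneys and 40.8, 70.7, 37.2 and 251 in wild-type kidneys. The highest values were those of *Pkd1*V/V replicate 1 and, above it, of the fourth wild-type kidney, and the difference of -0.60 (95% interval -1.75 to 0.56) was -0.08 without wild-type replicate 4 (adjusted *P* = 0.898). *Rora* was not called (-0.41, 95% interval -0.92 to 0.09), and *Rorb* was not above background.

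Clock genes read in the same kidneys followed those 2 samples in part. The repressor *Per1* read 1024, 541, 313 and 401 in *Pkd1*V/V kidneys and 582, 627, 249 and 1628 in wild-type kidneys, and *Per2* and *Ciart* were also highest in wild-type replicate 4, at 732 and 97.3. The time of day of collection is not given in the sources used here, and its part was not tested. Of 11 tested clock genes other than receptors, 3 were lower and none was higher: the period gene *Per3* (-1.18, adjusted *P* = 0.00241) and the output activators *Dbp* (-1.10, adjusted *P* = 0.000954) and *Tef* (-0.89, adjusted *P* = 0.0176). *Dbp* read 302, 263, 315 and 405 in *Pkd1*V/V kidneys and 633, 712, 637 and 835 in wild-type kidneys, so that its groups were apart with or without replicate 4.

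**Figure D5:**
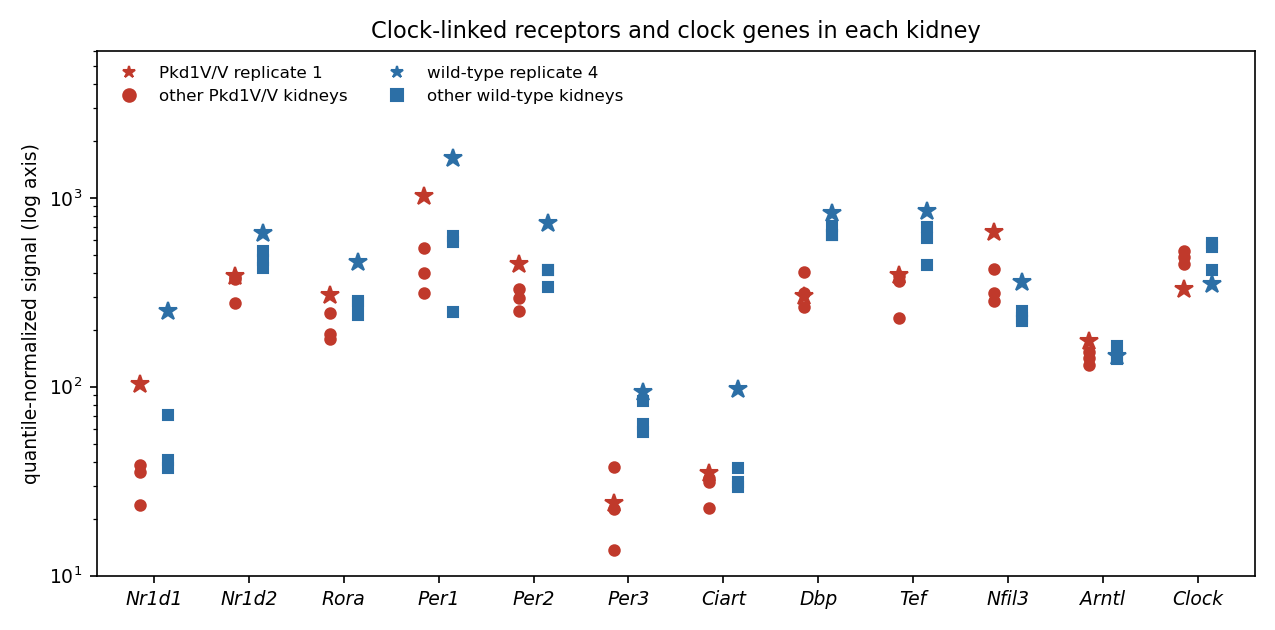
Quantile-normalized signal (log axis) of 3 clock-linked receptors and 9 clock genes in each kidney, with *Pkd1*V/V in red left of wild-type in blue and stars at *Pkd1*V/V replicate 1 and wild-type replicate 4. *Nr1d1*, *Per1*, *Per2* and *Ciart* are highest in wild-type replicate 4, while *Dbp* lies between 263 and 405 in *Pkd1*V/V kidneys and between 633 and 835 in wild-type kidneys.

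The COUP-TF receptors *Nr2f1* and *Nr2f2*, regulators of cell fate and of arterial and venous identity, were not called and had narrow intervals, at -0.05 (95% interval -0.35 to 0.24) and -0.06 (95% interval -0.38 to 0.26). *Nr2f1* read 699, 720, 731 and 657 in *Pkd1*V/V kidneys, inside the wild-type values of 598, 700, 771 and 874. Their relative *Nr2f6* was called lower by a small margin, with 1047, 1219, 1087 and 1191 in *Pkd1*V/V kidneys and 1512, 1493, 1376 and 1321 in wild-type kidneys. Its groups did not overlap (log2 fold change -0.32, SE 0.108, adjusted *P* = 0.0543), but a second probe gave -0.11 and the call was lost after removal of replicate 1 or 3 of the *Pkd1*V/V kidneys or of replicate 1 or 2 of the wild-type kidneys (-0.30 to -0.29). A second probe of *Nr2f2* gave -0.56 and was not called (limma over all detected probes, unadjusted *P* = 0.0397, adjusted *P* = 0.122). The orphan *Nr2c1* (0.13, 95% interval -0.61 to 0.87), the germ cell factor *Nr6a1* (0.07, 95% interval -0.36 to 0.49) and *Nr5a2* (0.30, 95% interval -0.13 to 0.73), a regulator of bile acid and steroid synthesis, were not called, and *Nr2c2* was not above background. *Nr5a2* was detected on 3 arrays, the fewest that pass the filter, and read 11.1 to 29.0 in *Pkd1*V/V and 6.91 to 20.2 in wild-type kidneys. *Nr2e1*, known from neural stem cells, was detected on 1 array of each group.

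*Nr4a1*, *Nr4a2* and *Nr4a3*, orphan receptors induced within minutes to hours as immediate early genes, were not tested. *Nr4a1* and *Nr4a3* were above background on no array, and *Nr4a2* on 1 *Pkd1*V/V array, where signals ran from 4.95 to 23.3 in *Pkd1*V/V kidneys and from 7.20 to 17.6 in wild-type kidneys. Of 13 other immediate early genes on the array, 9 were tested. *Fosl1*, *Ier2* and *Btg2* were above background on no array, and *Egr3* on 1 array of each group. Of the 9 tested, 8 were higher and none was lower (median 1.34), the smallest adjusted *P* values being those of *Egr2* (3.53, adjusted *P* = 0.000308), *Junb* (1.61, adjusted *P* = 0.0013) and *Atf3* (1.58, adjusted *P* = 0.00813). *Egr2* and *Atf3* were above background in 4 of 4 *Pkd1*V/V kidneys and 2 of 4 wild-type kidneys. *Egr2* read 266, 1079, 447 and 440 in *Pkd1*V/V kidneys and 18.2, 48.3, 16.9 and 34.6 in wild-type kidneys, far apart. The steroidogenic factor *Nr5a1* and the adrenal regulator *Nr0b1* were not above background on any array, also in *Pkd1*V/V replicate 1 with its adrenal transcripts, nor was *Nr0b2*, the FXR-induced repressor that lacks a DNA-binding domain.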

How the data were processed

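Total RNA of 4 *Pkd1*V/V and 4 wild-type P10 kidneys was read on Illumina MouseRef-8 v2.0 BeadChips, 1 array per kidney. The deposited probe intensities were background-subtracted by the authors but not normalized between arrays, and the software is not given in the sources used here. The deposited detection p-values, bead standard errors and bead numbers, other values per probe, accompany them. A second deposited table holds intensities quantile-normalized by the authors. The columns of per-sample values not mapped to a kidney numbered 0.

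Signals were quantile-normalized, negative values were set to 0, 16 was added and log2 was taken. A fold change is on this scale and understates changes of dim genes. *Thra*, *Rxra*, *Stra6*, *Aldh1a2*, *Abcc2* and *Per3* were above background in 3 of 4 *Pkd1*V/V kidneys and 4 of 4 wild-type kidneys. Of 25697 probes, 23978 had 1 gene symbol in the platform annotation, of which 23962 were updated through the RefSeq gene table, and 1719 had none. Probes detected (p under 0.05) on at least 3 of 8 arrays were kept (14221), and the one with the highest mean stood for its gene. Groups were compared with limma 3.58.1 in R 4.3.3, with Benjamini-Hochberg adjustment over 9833 genes and a threshold of 0.1, and the fit was tested on simulated data. The precision is limited by the number of arrays. Replicate numbers are not stated to pair kidneys. The methods used SAM with delta 1.0, kept as an alternative.

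The members and gene lists were chosen with earlier results of these data known. Every receptor is accounted for, those called by their value in each kidney. From each list of receptor partners and targets up to 3 higher and 3 lower genes with the smallest adjusted *P* are named, while the cell type lists are given mostly as counts. *Cyp24a1*, *Adipoq*, *Per1*, *Per2*, *Ciart*, *Havcr1*, *Sox9* and the untested list genes, among them the adrenal *Cyp11b1* and *Cyp21a1*, were named after their values were seen. Alternatives changed the offset, normalization, background, filter, probe choice, threshold, test, variance model and samples.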

Additional observations from a re-analysis of the deposited data

Results flagged for a closer look

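Among 58 groups of 4 kidneys examined for 29 receptors, 4 held a kidney far from the other 3 relative to the whole range of the group (Dixon's 95% criterion), and chance marks about 1 group in 20. *Nr1d2* in *Pkd1*V/V replicate 2 read 279, against 372 to 384 in the other *Pkd1*V/V kidneys. *Nr1i3* in *Pkd1*V/V replicate 3 read 3.16 where the others were at 0, and none of these was above background. *Hnf4a* in wild-type replicate 3 read 1651, against 1870 to 1880 in the other wild-type kidneys. *Nr1i2* in wild-type replicate 4 read 71.6, against 40.2 to 44.2 in the others, in the kidney with liver transcripts.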

How the results depend on the processing

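All 11 lower receptors had a negative value in every alternative run. The count of lower receptors was 10 to 12 throughout, both over the fits without 1 kidney and over the other settings, and 11 with SAM. Of the 11, 10 were called lower in all 8 fits without 1 kidney, *Nr2f6* being the exception, and 9 in every alternative except a stricter filter (detection on at least 6 of 8 arrays), under which *Nr1i2* was not tested. The counts of 10 and 9 both include *Nr1i2*, which passed the main filter through the wild-type arrays alone. *Nr1d2* (-0.41) and *Nr2f6* (-0.22) lost their calls when the probes of a gene were averaged. The count of higher receptors was 0 in the fits without 1 kidney, but 1 with no filter and 1 with SAM, in both cases *Rara* (0.77, limma adjusted *P* = 0.0611 with no filter), whose signals were near background. *Nr2f2* was called lower with averaged probes (-0.31, adjusted *P* = 0.0759) and *Rora* with array weights and an intensity trend (-0.52, adjusted *P* = 0.0511). The causes were not tested. Scalings moved the median of all genes by at most 0.02. With the replicate number as a block, 10 receptors were lower and 0 higher, 1437 genes were higher and 1391 lower, and *Nr2f6* lost its call. Kidneys of the same number correlated at -0.22, 0.31, 0.18 and -0.25 in their deviations from the group means, so the numbers were not taken as pairs. Chip as a block was not run, because the file headers name no chip. Dim probes limit what can be said of the 20 untested receptors.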
